A study of Mus musculus with 64 samples.

Results

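Enzymes that make, reduce or oxidize steroids and bile acids were followed in mouse liver by RNA-seq, namely Cyp17a1, Hsd3b2, Hsd3b3, Hsd3b5, Hsd3b7, Srd5a1, Akr1d1, Akr1c6, Cyp7b1 and Hsd17b2. They were chosen by name for their role, with earlier results of these data known, and are 10 of the 55573 genes in the count table, and all 10 had enough reads to be tested in liver. Male F1 hybrid mice from C57BL/6J and 129sv parents, 10 to 18 weeks old, were either wild type (WT) or carried a maternally inherited deletion of Ube3a (Ube3a m-/p+). The latter model Angelman syndrome (AS), a neurodevelopmental disorder caused by loss of the ubiquitin ligase UBE3A from neurons. The deletion removes 1 exon, neurons silence the paternal copy, and the liver of AS mice keeps the paternal copy active. Mice received a pellet of 20 mg corticosterone (CORT), the main glucocorticoid of rodents, or a vehicle pellet for 5 days, and liver and hippocampus of the same 20 mice were sequenced, with 5 mice in each of 4 groups (WT vehicle, WT CORT, AS vehicle and AS CORT). Hippocampi of 24 further mice, 6 per group, were taken 3 h after an injection of 3 mg/kg CORT or vehicle, the acute cohort.

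The adrenal makes most circulating steroids, but the liver decides how long they last. Reductases such as SRD5A1 and AKR1D1 saturate the A ring of glucocorticoids and androgens, hydroxysteroid dehydrogenases set the oxidation of the steroid at single carbons, and the products are conjugated and excreted. The same enzyme families turn cholesterol into bile acids. In rodents several of these genes differ between male and female liver, and CYP17A1, the enzyme that opens the path from progestogens to androgens, is known chiefly from gonads.

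The liver libraries held 18612550 to 20868924 reads on genes, so that a floor of 3 counts equalled 0.142 to 0.163 CPM. Reads on no gene took 15.4 to 23.3% of a library. Ube3a stood at 42.0 to 54.0 CPM in the 10 WT livers and at 28.0 to 37.9 CPM in the 10 AS livers, without overlap, while in hippocampus of the same mice it spanned 71.7 to 97.7 CPM in WT and 69.6 to 98.5 CPM in AS mice. Counts cover the whole gene, of which 1 exon is deleted, and what sets the overlap in hippocampus was not tested. All 7 hepatocyte markers were detected in every liver. Their summed level was 100733 to 111177 CPM in WT vehicle, 103754 to 121583 in WT CORT, 96568 to 129955 in AS vehicle and 121989 to 149753 in AS CORT livers. The 4 Kupffer cell markers summed to 110 to 149 CPM in WT vehicle and 141 to 199 in AS vehicle livers, against 53.9 to 81.4 in WT CORT and 55.9 to 82.0 in AS CORT livers. Pancreatic acinar markers summed to 34.0 to 44.3 CPM in vehicle and 6.54 to 23.9 CPM in CORT livers. Blood cell markers summed to 340 to 578 CPM in WT vehicle against 228 to 328 CPM in WT CORT livers, and to 244 to 466 CPM in AS vehicle against 124 to 195 CPM in AS CORT livers. The part of these shifts in the results on the enzymes was not tested, and in whole tissue fewer cells of a type and less RNA per cell cannot be told apart.

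Hsd3b2, Hsd3b3 and Hsd3b5 lie side by side on chromosome 3 and resemble each other, which bears on how far their reads can be told apart. The first 100 coding bases (bases 1 to 100 of the longest reading frame, 5′ to 3′) are shown for that reason, with capitals where Hsd3b3 (4 bases) or Hsd3b5 (15 bases) differs from Hsd3b2.
Hsd3b2: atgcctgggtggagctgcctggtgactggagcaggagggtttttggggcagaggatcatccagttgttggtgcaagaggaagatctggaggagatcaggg
Hsd3b3: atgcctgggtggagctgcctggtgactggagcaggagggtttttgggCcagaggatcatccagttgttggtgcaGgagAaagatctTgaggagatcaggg
Hsd3b5: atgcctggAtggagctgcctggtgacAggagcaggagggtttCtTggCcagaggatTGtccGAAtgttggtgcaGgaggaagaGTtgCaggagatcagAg
Over the whole reading frame of 1122 bases, Hsd3b2 and Hsd3b3 were 95.1% identical, Hsd3b2 and Hsd3b5 80.3%, and Hsd3b3 and Hsd3b5 79.9%. Hsd3b7, on chromosome 7, shared 51.3 to 52.0% with the others. Of all windows of 100 bases (the read length) in the transcripts of Hsd3b2, 6.90% also occurred in another gene, most often Hsd3b3, and of those of Hsd3b3, 3.31% did, most often in Hsd3b2. For Hsd3b5 the share was 7.79%, most often with the predicted gene Gm10681, which had 0 counts in liver. Values of these 3 genes carry that uncertainty. Cyp17a1, Akr1d1, Akr1c6, Cyp7b1 and Hsd17b2 shared none of their windows with another gene.

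The promoters of Hsd3b2 and Hsd3b5 are shown because these genes moved together from mouse to mouse, as described further on. Each window runs from 250 bases before the RefSeq start site to 50 bases into the transcript on the minus strand (RefSeq, GRCm38.p6). A promoter entry was found for 7 of the 10 enzymes, and Cyp17a1, Cyp7b1 and Hsd17b2 had none. Capitals mark AGAACA, the hexamer of a glucocorticoid response element, at bases 5 to 10 of the Hsd3b2 window.
Hsd3b2 (chr3:98724494-98724793): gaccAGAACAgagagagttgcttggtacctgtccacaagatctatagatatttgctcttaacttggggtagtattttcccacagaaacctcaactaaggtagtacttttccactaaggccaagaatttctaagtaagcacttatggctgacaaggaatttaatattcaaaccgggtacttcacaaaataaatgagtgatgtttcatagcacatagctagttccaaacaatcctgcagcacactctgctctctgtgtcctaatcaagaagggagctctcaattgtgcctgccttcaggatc
Hsd3b5 (chr3:98645485-98645784): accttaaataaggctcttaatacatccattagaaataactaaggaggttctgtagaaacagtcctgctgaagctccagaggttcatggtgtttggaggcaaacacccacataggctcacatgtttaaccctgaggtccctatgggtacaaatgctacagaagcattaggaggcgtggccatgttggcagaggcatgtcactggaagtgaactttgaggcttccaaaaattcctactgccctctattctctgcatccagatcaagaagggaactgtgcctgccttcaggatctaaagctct
The start site of the Hsd3b5 entry lies upstream of the gene as annotated in GENCODE, so this window belongs to a longer transcript. These windows were 48.9% identical in a global alignment, against 40.2 to 55.1% over the pairs of different enzymes. Several motifs were searched on both strands. AGAACA occurred in 1 of the 7 enzymes (Hsd3b2) and in 18.97% of all 32851 promoters. The STAT5 motif TTCNNNGAA was found in Hsd3b7 alone and in 8.30% of all promoters, and TATAAA in Akr1c6 alone and in 13.6%. The full palindromic glucocorticoid response element (0.00913% of all promoters), the LRH-1 motif CAAGGTCA (1.56%) and the C/EBP palindrome TTGCGCAA (0.183%) were in none of the 7.

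Continuous CORT raised Cyp17a1 in every treated liver, by more than any other enzyme of the group. This gene (ENSMUSG00000003555, chromosome 19, 46667165 to 46673172, minus strand, GRCm38) encodes steroid hydroxylase and lyase of androgen synthesis. In WT vehicle livers it stood at 4.003, 5.97, 6.90, 8.03 and 12.2 CPM (7.42 ± 3.06, SD, n = 5, 84 to 252 counts). In WT CORT livers it stood at 310, 330, 349, 383 and 391 CPM (353 ± 34.1, SD, n = 5). The lowest treated WT liver was thus far above the highest vehicle liver. AS vehicle livers held 3.58, 4.59, 5.21, 5.30 and 7.64 CPM (5.27 ± 1.49, SD, n = 5, 74 to 155 counts), and AS CORT livers held 279, 337, 374, 412 and 433 CPM (367 ± 61.5, SD, n = 5). Again the groups did not overlap. By edgeR's quasi-likelihood test, the log2 fold change was 5.57 (SE 0.25, adjusted p = 1.59e-11) in WT mice, a 47.4-fold rise, and 6.09 (SE 0.26, adjusted p = 2.07e-12) in AS mice, a 68.3-fold rise. Among the 12273 genes tested in liver, it had the 8th highest log2 fold change in both genotypes. Markers of adrenal cortex were scarce in these livers: Cyp11b1 had 0 counts in all 20, Cyp11a1 had 1 count in 1 AS vehicle and 1 AS CORT liver and 0 in the others, and the 4 markers together summed to 1.09 to 4.72 CPM in WT vehicle, 1.48 to 2.94 in WT CORT, 0.773 to 2.22 in AS vehicle and 0.839 to 1.77 in AS CORT livers.

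Across the enzymes, CORT changed 6 of 10 in WT livers (3 higher and 3 lower), where 18.6% of all genes tested were called at an adjusted p of 0.05 (8.73% higher and 9.9% lower). In AS livers it also changed 6 of 10 (3 higher and 3 lower), against 27.5% of all genes (12.6% higher and 15% lower). The median log2 fold change of the 10 was -0.31 in WT and -0.40 in AS livers, beside -0.005 and -0.003 over all genes tested. Cyp17a1, Srd5a1 and Akr1d1 rose and Hsd3b5 and Akr1c6 fell in both genotypes, Hsd3b3 fell in WT livers and Hsd17b2 fell in AS livers. Averaged over the genotypes, a comparison added after the data were seen, 8 of 10 were called (3 higher and 5 lower) against 37.1% of all genes (17.5% higher and 19.6% lower), with Hsd3b2, Hsd3b3 and Hsd17b2 all lower.

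**Figure D1:**
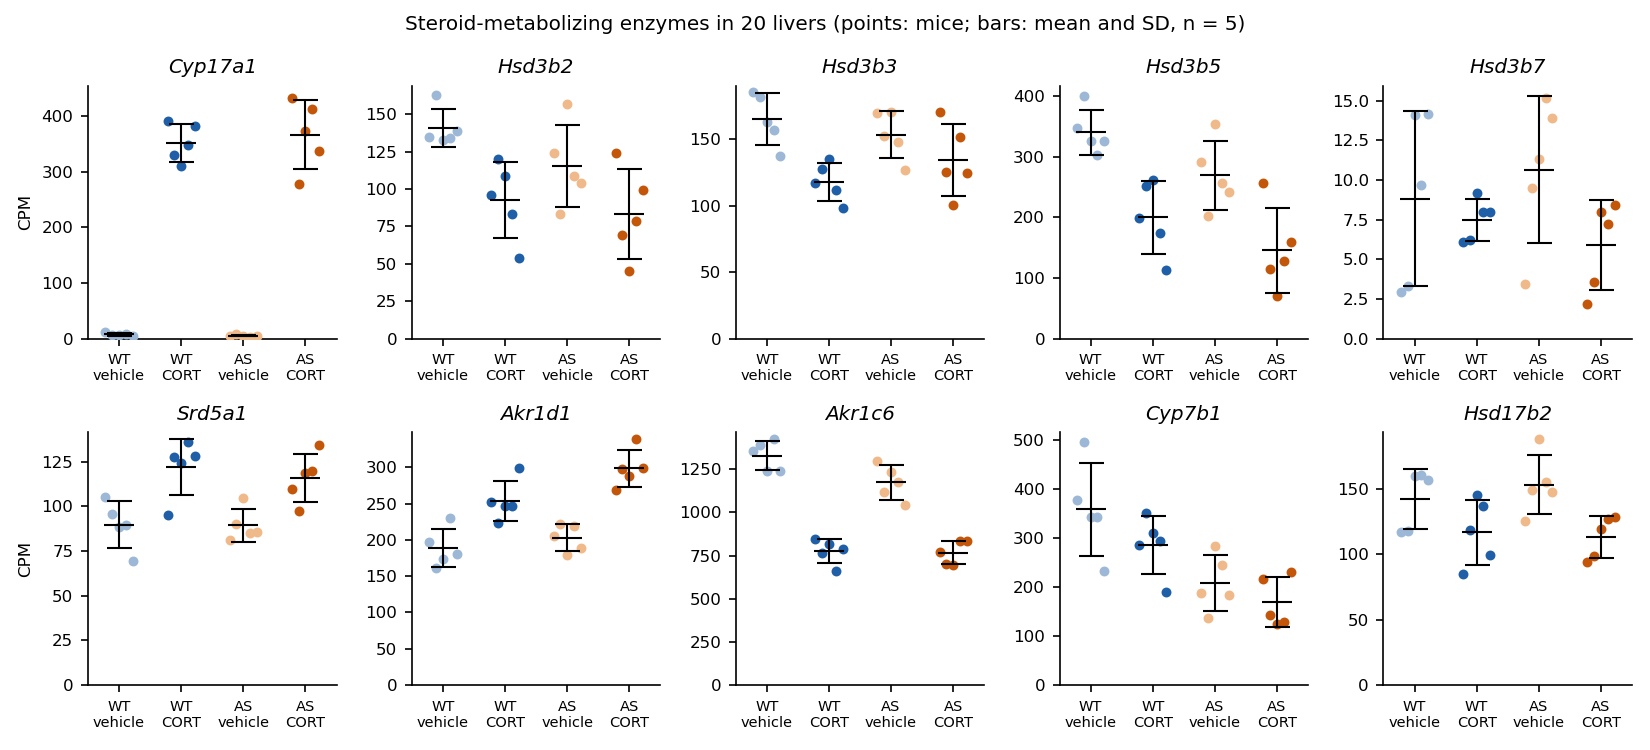
Normalized counts (CPM, linear axis from 0) of the 10 enzymes in 20 livers, one point per mouse, with the mean and SD of each group of 5. Cyp17a1 is near 0 in both vehicle groups and at 279 to 433 CPM in all CORT livers, and Akr1c6 falls from a mean of 1330 to 775 CPM in WT and from 1174 to 768 CPM in AS mice.

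**Figure D2:**
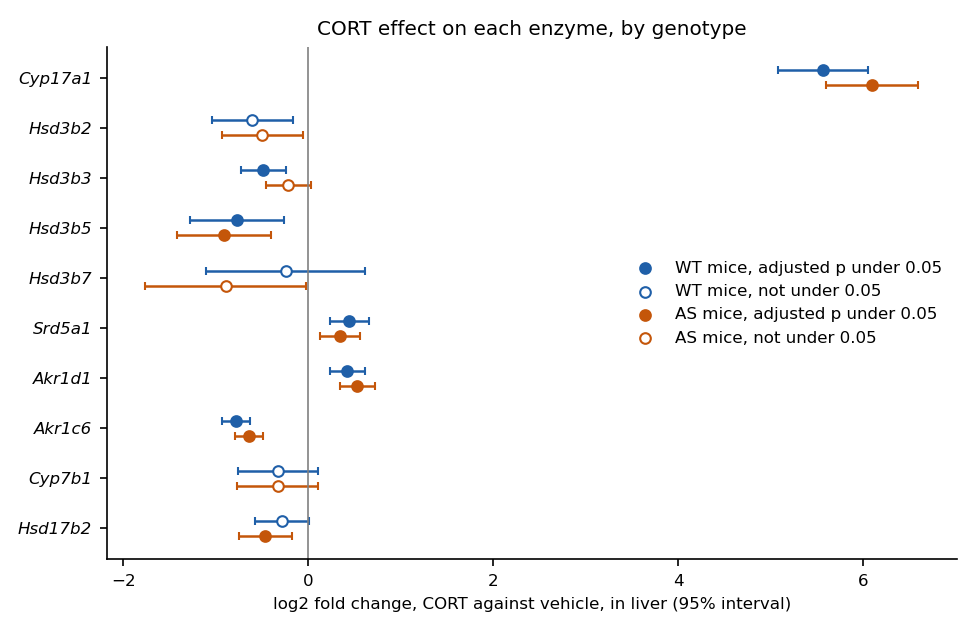
Log2 fold change of CORT against vehicle in liver for each enzyme and genotype (n = 5 mice per group), with approximate 95% intervals. Filled points passed an adjusted p of 0.05. Cyp17a1 lies at 5.57 in WT and 6.09 in AS mice, all others between -0.92 and 0.53.

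In the Hsd3b cluster of chromosome 3, Hsd3b5 fell with CORT in both genotypes, Hsd3b3 fell in WT livers, and Hsd3b2 passed in neither genotype alone. HSD3B2 and HSD3B3 oxidize and isomerize the early steroid precursors, and HSD3B5 is a reductase of ketosteroids typical of male mouse liver. Hsd3b5 (ENSMUSG00000038092, chromosome 3, 98618634 to 98630252, minus strand) was at 303, 325, 326, 347 and 400 CPM in WT vehicle livers and at 113, 175, 198, 252 and 261 CPM in WT CORT livers. All treated WT livers lay below all vehicle livers. AS vehicle livers held 203, 241, 257, 292 and 354 CPM and AS CORT livers 69.9, 114, 128, 159 and 256 CPM. Here a single CORT liver, L7, at 256 CPM reached into the vehicle range. The log2 fold change was -0.77 (SE 0.26, adjusted p = 0.0427, edgeR quasi-likelihood test) in WT and -0.92 (SE 0.26, adjusted p = 0.0121) in AS mice. The WT call was marginal: it was lost when any 1 of L1, L3, L4, L6, L13, L14, L15, L17 or L20 was left out (adjusted p = 0.0504 to 0.106), and the AS call was kept without any single liver.

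Hsd3b2 (ENSMUSG00000063730, chromosome 3, 98709255 to 98724543, minus strand) was at 133, 134, 135, 139 and 163 CPM in WT vehicle and at 54.2, 83.3, 96.3, 109 and 120 CPM in WT CORT livers. The AS groups overlapped, with 83.2, 104, 109, 124 and 157 CPM in vehicle and 44.9, 69.3, 78.7, 99.4 and 124 CPM in CORT livers. WT values did not overlap. Neither log2 fold change passed the threshold (-0.61, SE 0.22, adjusted p = 0.0650 in WT and -0.50, SE 0.22, adjusted p = 0.106 in AS, edgeR quasi-likelihood test). Without WT CORT liver L5 or AS CORT liver L7 or L10 the WT value did pass (adjusted p = 0.0464, 0.0409 and 0.0300), and without L7 so did the AS value (-0.69, adjusted p = 0.0300). The WT value also passed by DESeq2 (adjusted p = 0.0357), with upper-quartile normalization (0.0497) and with only the compared groups in the fit (0.0300), and the AS value with 1 surrogate variable (0.0465). Averaged over genotypes the decrease was -0.55 (SE 0.16, adjusted p = 0.00946).

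Hsd3b3 (ENSMUSG00000062410, chromosome 3, 98741523 to 98763127, minus strand) was at 137, 157, 163, 182 and 186 CPM in WT vehicle and at 98.1, 111, 117, 127 and 135 CPM in WT CORT livers, without overlap. In AS mice the vehicle livers were at 126, 148, 153, 169 and 171 CPM and the CORT livers at 101, 125, 125, 152 and 171 CPM. The AS groups overlapped over most of their range. On the log2 scale the change was -0.49 (SE 0.12, adjusted p = 0.00823, edgeR quasi-likelihood test) in WT and -0.22 (SE 0.12, adjusted p = 0.202) in AS mice. The difference between the genotypes, 0.27 (SE 0.17, adjusted p = 0.682), did not pass. The neighbouring Hsd3b6 had 0 counts and Hsd3b1 at most 1 count in any liver.

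Akr1d1 and Srd5a1, which saturate the steroid A ring, rose. Akr1d1 (ENSMUSG00000038641, chromosome 6, 37530173 to 37568815, plus strand) encodes the enzyme that reduces the A ring in bile acid synthesis and in the inactivation of glucocorticoids. WT vehicle livers held 162, 174, 181, 197 and 230 CPM and WT CORT livers 224, 247, 247, 252 and 300 CPM. One WT vehicle liver at 230 CPM exceeded the lowest treated one. AS vehicle livers held 180, 189, 205, 220 and 223 CPM and AS CORT livers 268, 289, 297, 299 and 339 CPM, without overlap. The log2 fold change was 0.42 (SE 0.10, adjusted p = 0.00385, edgeR quasi-likelihood test) in WT and 0.53 (SE 0.10, adjusted p = 0.000380) in AS mice.

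Srd5a1 (ENSMUSG00000021594, chromosome 13, 69573449 to 69611442, minus strand), the other A-ring reductase, acts on the opposite face of the ring and makes dihydrotestosterone. It was at 69.6, 88.7, 89.5, 96.0 and 105 CPM in WT vehicle and at 95.4, 124, 127, 128 and 136 CPM in WT CORT livers. Apart from L3 at 95.4 CPM, all treated WT livers exceeded all vehicle livers. AS vehicle livers held 81.4, 85.0, 85.8, 90.2 and 105 CPM and AS CORT livers 97.5, 110, 118, 120 and 135 CPM, with an overlap of a single liver on each side. Its log2 fold change was 0.44 (SE 0.11, adjusted p = 0.00700, edgeR quasi-likelihood test) in WT and 0.35 (SE 0.11, adjusted p = 0.0242) in AS mice. The AS call was lost without L2, L14, L18 or L19 (adjusted p = 0.0514 to 0.0664). Of the exonic bases of Srd5a1, 16.4% overlap the gene model Gm17108, which had 0 to 5 counts per liver.

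Akr1c6 moved the other way. Akr1c6 (ENSMUSG00000021210, chromosome 13, 4434306 to 4457877, plus strand), a hepatic dehydrogenase that interconverts keto and hydroxy forms of sex steroids, was at 1238, 1241, 1357, 1391 and 1425 CPM in WT vehicle livers. In WT CORT livers it was at 661, 765, 787, 818 and 844 CPM. AS vehicle livers held 1045, 1116, 1176, 1237 and 1298 CPM and AS CORT livers 693, 702, 773, 835 and 836 CPM. In neither genotype did the groups overlap. The log2 fold change was -0.78 (SE 0.08, adjusted p = 6.50e-07, edgeR quasi-likelihood test) in WT and -0.64 (SE 0.08, adjusted p = 4.47e-06) in AS mice.

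Hsd17b2 (ENSMUSG00000031844, chromosome 8, 117701904 to 117759027, plus strand), which oxidizes estradiol and testosterone to weaker steroids, was at 117, 118, 157, 160 and 161 CPM in WT vehicle and at 85.3, 99.7, 118, 137 and 145 CPM in WT CORT livers. AS vehicle livers held 126, 148, 149, 155 and 188 CPM and AS CORT livers 93.9, 98.6, 119, 127 and 128 CPM. Groups overlapped in both genotypes. This gave a log2 fold change of -0.29 (SE 0.15, adjusted p = 0.195, edgeR quasi-likelihood test) in WT and -0.46 (SE 0.15, adjusted p = 0.0244) in AS mice. With 1 surrogate variable in the fit the WT value passed as well (-0.35, adjusted p = 0.00750), and the AS call was lost without L7, L8 or L11 (adjusted p = 0.0639 to 0.0788).

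Hsd3b7 and Cyp7b1 act on oxysterols and bile acid precursors, and neither passed the test for CORT. Hsd3b7 (ENSMUSG00000042289, chromosome 7, 127800604 to 127803802, plus strand) was the least abundant enzyme after Cyp17a1 in vehicle livers and the most variable. It was at 2.96, 3.30, 9.65, 14.1 and 14.2 CPM in WT vehicle, 6.07, 6.24, 7.97, 7.99 and 9.18 CPM in WT CORT, 3.43, 9.46, 11.3, 13.9 and 15.2 CPM in AS vehicle and 2.15, 3.54, 7.25, 7.98 and 8.42 CPM in AS CORT livers. The low vehicle livers were L1 and L4 in WT and L2 in AS mice. These 3 livers also had the lowest summed cholangiocyte markers of their groups, with 5.28, 4.01 and 3.43 CPM against 8.34 to 15.1 CPM in the other vehicle livers, whereas among AS CORT livers L7, with the lowest Hsd3b7, had the highest sum (11.6 CPM). The part of such cells in the values was not tested. The log2 fold change was -0.24 (SE 0.44, adjusted p = 0.766, edgeR quasi-likelihood test) in WT and -0.89 (SE 0.44, adjusted p = 0.143) in AS mice, and without L2 the AS value passed (-1.12, adjusted p = 0.0459). Same-strand exons of Gm49388 cover 62.0% of Hsd3b7, and opposite-strand exons of 9430064I24Rik cover 62.4%, with 0 and 0 to 7 counts per liver, so the Hsd3b7 level is uncertain.

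Cyp7b1 was called lower in AS than in WT livers once both treatments were averaged, and was not called in either treatment alone, with a similar difference in each. Cyp7b1 (ENSMUSG00000039519, chromosome 3, 18071950 to 18243338, minus strand) hydroxylates oxysterols and, in brain, steroid precursors. WT vehicle livers held 233, 343, 343, 378 and 497 CPM and AS vehicle livers 138, 185, 187, 246 and 285 CPM. WT CORT livers held 190, 286, 293, 310 and 352 CPM and AS CORT livers 124, 129, 143, 216 and 232 CPM. With either pellet the AS livers were mostly lower, with some overlap. The log2 difference, AS minus WT, was -0.76 (SE 0.22, adjusted p = 0.249, edgeR quasi-likelihood test) with vehicle and -0.77 (SE 0.22, adjusted p = 0.233) with CORT, so neither passed over all genes. Averaged over both treatments, a comparison added after the data were seen, it was -0.76 (SE 0.16, adjusted p = 0.0392), and 0.326% of all genes were called there, 0.179% as lower. The effect of CORT on Cyp7b1 was -0.33 in both genotypes (SE 0.22, adjusted p = 0.341 in WT and 0.289 in AS mice).

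No other enzyme differed between AS and WT livers beyond the test. With vehicle, 0 of 10 enzymes and 0.0163% of all genes were called, and only Cyp7b1 had an unadjusted p under 0.05. With CORT, 0 of 10 enzymes and 0.277% of all genes were called, with Akr1d1 and Cyp7b1 under an unadjusted p of 0.05. The DESeq2 test called 0 of 10 in each of these comparisons. Leaving Cyp7b1 aside, the log2 differences of the other 9 ran from -0.47 to 0.29 with vehicle and from -0.46 to 0.23 with CORT. Averaged over both treatments, Akr1d1 (0.18, adjusted p = 0.362) and Hsd3b5 (-0.39, adjusted p = 0.482) also had an unadjusted p under 0.05 by edgeR's quasi-likelihood test.

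Whether genotype altered the response to CORT was tested as the difference of the log2 fold changes, AS minus WT. It passed for 0 of the 10 enzymes and for 0% of all genes by edgeR, none of the 10 had an unadjusted p under 0.05, and DESeq2 also called 0 of 10. The differences ran from -0.65 for Hsd3b7 to 0.53 for Cyp17a1, with adjusted p from 0.665 to 0.999. The interval of the Cyp17a1 difference was -0.07 to 1.12 on the log2 scale, so a larger rise in AS mice than in WT mice of up to that size is within the error. For Akr1c6 it was -0.07 to 0.36, for Akr1d1 -0.16 to 0.37 and for Srd5a1 -0.40 to 0.21. The intervals of the others were -0.51 to 0.73 for Hsd3b2, -0.07 to 0.61 for Hsd3b3, -0.86 to 0.57 for Hsd3b5, -1.87 to 0.57 for Hsd3b7, -0.62 to 0.61 for Cyp7b1 and -0.58 to 0.23 for Hsd17b2.

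The rise of Cyp17a1 changed the order of the enzymes in the liver. Levels between genes were compared per length (RPKM, with the summed exon length of each gene). These lengths follow the gene models, with 6396 bases for Hsd3b3, 3695 for Hsd3b2 and 1549 for Hsd3b5, whose reading frames are equally long. In WT vehicle livers the mean CPM of Hsd3b3 (165) was above that of Hsd3b2 (141), so the order by RPKM depends on these models. With vehicle, Akr1c6 led at 654 RPKM in WT and 578 in AS mice and did not overlap the next enzyme. Hsd3b5 (220 and 174 RPKM) and Cyp7b1 (166 and 96.1 RPKM) followed and overlapped each other, and in AS mice Cyp7b1 also overlapped Hsd17b2. Hsd17b2 (74.0 and 79.6 RPKM) and Akr1d1 (65.3 and 70.2 RPKM) overlapped as well, as did Hsd3b2 (38.1 and 31.2 RPKM) and Srd5a1 (30.9 and 30.8 RPKM). Hsd3b3 came next at 25.8 and 23.99 RPKM, overlapping Srd5a1 in WT but not in AS mice. Hsd3b7 (3.19 and 3.85 RPKM) and Cyp17a1 (2.68 and 1.90 RPKM) were lowest and overlapped. With CORT, Akr1c6 still led at 381 RPKM in WT and 378 in AS mice. Cyp17a1 reached 127 ± 12.3 RPKM (SD, n = 5) in WT mice, within the ranges of Cyp7b1 (132) and Hsd3b5 (129) and above Akr1d1 (87.8). In AS mice it reached 133 ± 22.2 RPKM (SD, n = 5) and stood next to Akr1c6, with a range of 101 to 156 RPKM that overlapped those of Akr1d1 (mean 103), Hsd3b5 (45.1 to 165) and Cyp7b1 (57.3 to 107). Hsd3b7 was then last at 2.70 and 2.12 RPKM.

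Some enzymes also varied together between mice of one group. Deviations from the group means of log2 CPM were correlated over the 20 livers for all 45 pairs, with a permutation test within groups (two-sided, 100000 resamples). Of these, 6 pairs passed after adjustment over the 45, all of them positive. Hsd3b2 and Hsd3b5 had a Pearson r of 0.98 (adjusted permutation p = 0.00045, the smallest the resamples can give) and a Spearman rho of 0.97 (adjusted permutation p = 0.00045), and r was 0.95 without L10 and L20, the livers farthest from the median. Within the 4 groups r was 0.87, 0.98, 0.998 and 0.99, so the pair moved together in every group. Cyp7b1 followed both genes, with r = 0.78 (rho = 0.74, adjusted permutation p = 0.00165 and 0.0110) with Hsd3b2 and r = 0.75 (rho = 0.79, adjusted permutation p = 0.00165 and 0.00472) with Hsd3b5. Without the same livers r was 0.74 and 0.69. Hsd3b7 and Hsd17b2 had r = 0.73 (rho = 0.67, adjusted permutation p = 0.00337 and 0.0125), and 0.66 without L7 and L1. The vehicle livers L1, L4 and L2, lowest in Hsd3b7 and in cholangiocyte markers, were also the lowest of their groups in Hsd17b2 (117, 118 and 126 CPM), and the part of such cells in this pair was not tested. The remaining pairs rested partly on 2 livers. Hsd3b3 and Hsd3b5 went from r = 0.81 (rho = 0.71, adjusted permutation p = 0.00360 and 0.0317) to 0.66 (adjusted permutation p = 0.0609) without L10 and L20. Hsd3b2 and Hsd3b3, the pair closest in sequence, went from 0.75 (rho = 0.66, adjusted permutation p = 0.0121 and 0.0713) to 0.55 (adjusted permutation p = 0.220).

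**Figure D3:**
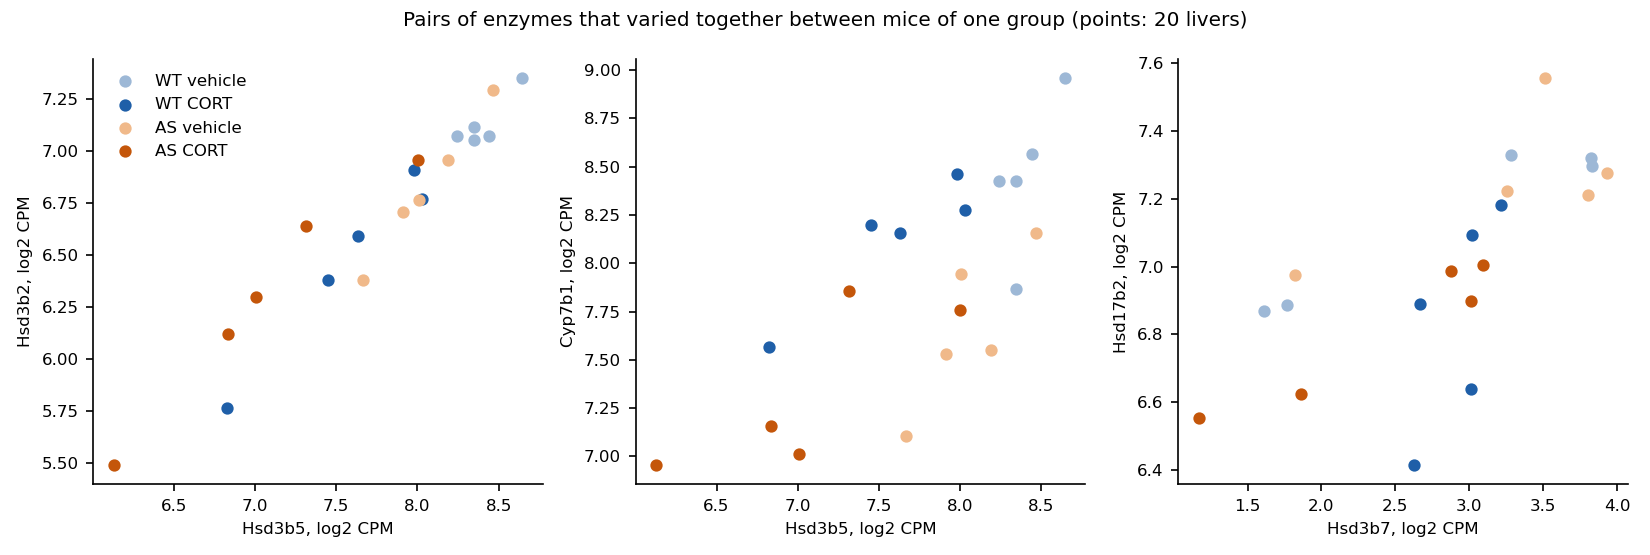
Pairs of enzymes over 20 livers (3 panels) in log2 CPM, one point per mouse and one colour per group. In the panel of Hsd3b5 and Hsd3b2 the points of all 4 groups fall along one line, with L10 at the lower left end at 69.9 and 44.9 CPM.

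Genes with a pattern close to that of Cyp17a1 were sought by the Pearson r of log2 CPM over the 20 livers, as a description. Vehicle and CORT livers form separate clusters, so a high r restates the effect of CORT. The highest were 1810053B23Rik, Gm47465 and Cyp39a1 (r = 0.99 each), As3mt and E030018B13Rik (r = 0.98 each). Within groups their r with Cyp17a1 was 0.56, 0.40, 0.05, 0.19 and 0.42. The lowest were Sort1 (r = -0.99), 5830473C10Rik (-0.98), Apol9b, Nrp1 and Gm15998 (-0.97 each). Cyp39a1, an oxysterol hydroxylase of bile acid synthesis, went from 16.5 ± 1.44 to 88.3 ± 11.6 CPM (SD, n = 5) in WT mice and from 14.2 ± 2.01 to 97.97 ± 14.4 CPM (SD, n = 5) in AS mice. The sorting receptor Sort1 went from 36.8 ± 8.23 to 7.48 ± 0.67 CPM in WT and from 38.8 ± 6.77 to 6.32 ± 1.28 CPM in AS mice.

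As3mt is also a neighbour of Cyp17a1. Within 100000 bases of Cyp17a1 there are 9 genes with it included, 7 of which were tested. This window was chosen after the values were seen, and the genes in it are described without a test of their grouping. Besides Cyp17a1, As3mt (arsenic methyltransferase, its start 34.3 kb away) rose from 40.6 to 114 CPM in WT and from 40.3 to 115 CPM in AS mice (log2 fold change 1.49, SE 0.09, adjusted p = 3.19e-10 and 2.50e-10). Borcs7 (16.7 kb) rose by 0.45 in WT and 0.85 in AS, Wbp1l by 0.54 and 0.64, Sfxn2 by 0.38 and 0.62 and Cnnm2 by 0.39 and 0.43 on the log2 scale. Arl3 rose by 0.40 in AS mice, while its WT value of 0.26 did not pass (adjusted p = 0.0954). Thus 6 of the 7 were called higher in WT and 7 of 7 in AS livers, beside 8.73% and 12.6% of all genes. The 7 include Cyp17a1, which defined the window, and As3mt, already picked by its correlation with Cyp17a1. Part of the count was therefore fixed beforehand, and nothing is read from it. Around the Hsd3b cluster, 4 of 17 genes were tested, and those were Hsd3b2, Hsd3b3, Hsd3b5 and Zfp697, which did not pass.

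**Figure D4:**
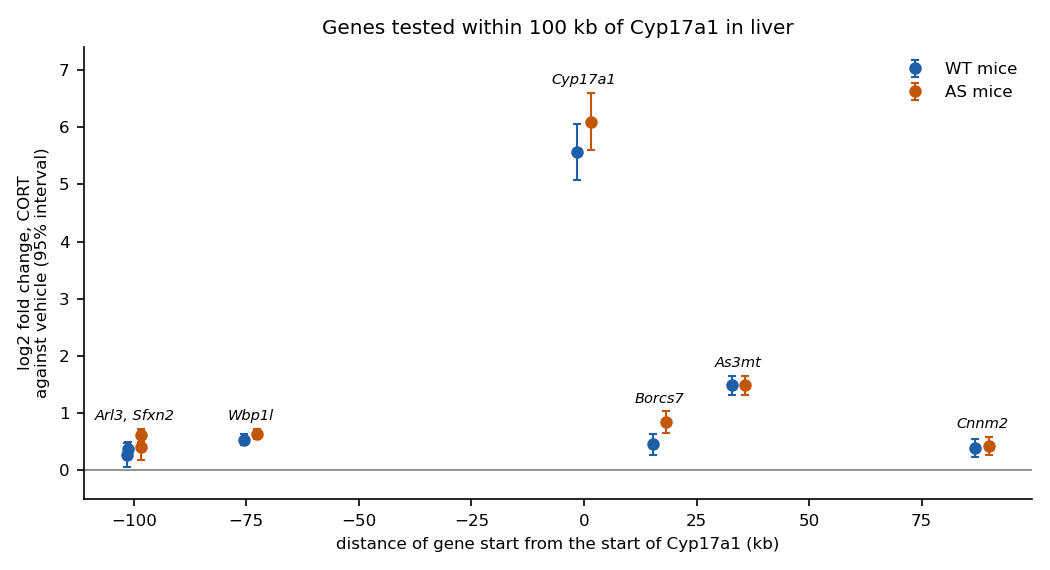
Log2 fold change of CORT against vehicle (approximate 95% interval, n = 5 mice per group) for the tested genes around Cyp17a1, against the distance of their start from that of Cyp17a1 in kb. All lie above 0, and Cyp17a1 at 5.57 and 6.09 stands far above its nearest rival As3mt at 1.49.

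Other genes of steroid metabolism were counted by list, and each count stands beside 18.6% of all genes called in WT and 27.5% in AS livers. Of 17 genes of steroid hormone synthesis, 8 were tested, and only Fdxr, a reductase in the electron supply of mitochondrial steroid hydroxylases, was called in both genotypes (-0.54 in WT and -0.45 in AS on the log2 scale). The list's median log2 fold change was -0.13 in WT and -0.07 in AS livers. Of 3 genes of glucocorticoid activation, 2 were tested, and Hsd11b1, which regenerates active CORT, rose from 671 ± 29.5 to 907 ± 41.9 CPM (SD, n = 5) in WT mice and from 667 ± 31.0 to 1103 ± 168 CPM (SD, n = 5) in AS mice. Its log2 fold changes were 0.43 (adjusted p = 0.000687) and 0.70 (adjusted p = 2.56e-06). Among 14 tested genes of other steroid reductases and dehydrogenases, 6 were called in WT (2 higher) and 4 in AS livers (3 higher), and the lists' medians were -0.15 and -0.12. Hsd17b10 (0.46 and 0.57) and Hsd17b4 (0.20 and 0.24) rose, and the A-ring reductase Srd5a2 fell (-0.60 and -0.76), from 1.22 to 0.809 CPM in WT mice. Steroid glucuronidation had 8 genes tested with 3 called lower in WT and 2 in AS livers, among them Ugt2b35 (-0.82 and -0.71) and Ugt2b38 (-2.27 and -2.61), with medians of -0.10 and -0.11. Of 8 tested enzymes of bile acid and oxysterol synthesis, 4 were called in each genotype (3 higher and 1 lower). Cyp39a1 (2.41 and 2.76) and Acox2 (0.65 and 0.88) rose and Amacr fell (-0.48 and -0.47). The medians of that list were 0.25 and 0.27.

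Lists of genes known for sex differences or zonation of the liver, and of regulators of these enzymes, were counted in the same way, beside the same 18.6% of all genes in WT and 27.5% in AS livers. These lists were chosen with earlier results of these data known, so no enrichment is read from their counts. Of 15 male-biased genes tested, 4 were called in WT (2 higher and 2 lower) and 5 in AS livers (all lower), with medians of 0.15 and -0.34. With CORT, 8 of the 15 were lower in AS than in WT livers, against 0.171% of all genes, but the difference of the CORT effects passed for 0 of 15. Nudt7 (-1.19 and -1.99) and Susd4 (-0.53 and -0.72) fell in both genotypes. Of 6 tested female-biased genes, 3 were called in WT (2 higher) and 5 in AS livers (4 higher), with medians of 0.41 and 2.51. With CORT, 3 of the 6 were higher in AS than in WT livers, against 0.106% of all genes, and the difference of the CORT effects passed for 0 of 6. Fmo2 rose (1.79 in WT and 4.23 in AS on the log2 scale) and Abcd2 fell (-1.51 and -1.73). Of 15 regulators, 4 were called in WT (2 higher) and 6 in AS livers (4 higher). The xenobiotic receptor gene Nr1i2 rose (0.39 and 0.65) and the glucocorticoid receptor gene Nr3c1 fell (-0.15 and -0.22). The medians of the regulators were -0.02 and -0.06. Of 7 pericentral genes, 5 were called in WT (1 higher) and 4 in AS livers (2 higher), with Cyp1a2 and Lgr5 lower and Glul higher in both and medians of -0.81 and -0.22. Of 7 periportal genes, 1 was called in WT and 5 in AS livers (4 higher), with Cyp2f2 higher in both and medians of 0.09 and 0.23.

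Hippocampus of the same mice served as contrast. Libraries H9 and H13, which the study left out, were not in the fit, so 18 hippocampi remained. Only Srd5a1 and Cyp7b1 had enough reads to be tested there. The other 8 passed the joint filter only through liver, so that they had to be higher there. All 10 were called higher in liver, as were 44.6% of all genes, and nothing is read from that count. The fitted log2 difference, liver minus hippocampus, was 4.77 (SE 0.07) for Srd5a1 and 4.07 (SE 0.11) for Cyp7b1, and the ratios of mean liver CPM to pooled hippocampal CPM were 26.4 and 16.8. By the same ratio, Hsd3b7, with 97 counts over 18 hippocampi, was 58.7 times higher in liver (counting interval 48.2 to 72.4), and Hsd17b2, with 45 counts, 2030 times (1517 to 2783). The other 6 were close to absent, and here 2 hippocampi stood apart. H1 held 29 counts of Akr1c6, 12 of Hsd3b5, 11 of Cyp17a1 and 7 of Hsd3b3, and H2 held 7 of Akr1c6 and 5 of Hsd3b5. These libraries also held 1931 and 665 counts of the hepatocyte gene Alb, against 0 to 60 in the other 18 hippocampi of that cohort. Without them, in 16 hippocampi, Cyp17a1 had 6 counts in all and at most 1 per library, Hsd3b5 and Akr1c6 had 1 count each, and Hsd3b2, Hsd3b3 and Akr1d1 had 0. Over all 18 hippocampi, H1 and H2 included, Hsd3b2 was 12516 times higher in liver (counting interval 5750 to 34104), Hsd3b3 12402 times (6294 to 28727) and Akr1d1 27366 times (12573 to 74571). All their hippocampal counts came from H1 and H2, and without these libraries the exact interval of 0 counts gave lower limits of 18113-, 23932- and 39604-fold.

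**Figure D5:**
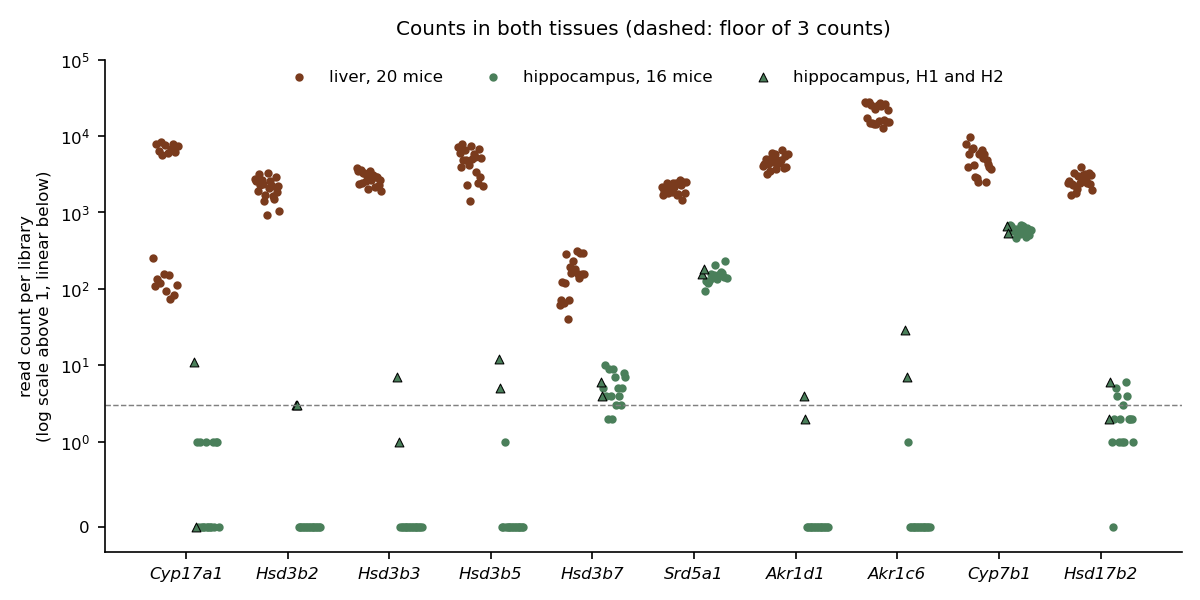
Read counts per library in 20 livers and 18 hippocampi (log axis above 1, linear below, floor of 3 counts dashed). Every enzyme is higher in every liver than in any hippocampus, and H1 and H2 (triangles) hold most of the hippocampal counts of Akr1c6, Hsd3b5 and Cyp17a1.

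Srd5a1 responded to CORT differently in liver and hippocampus. In hippocampus it stood at 5.83, 6.62, 7.37 and 7.38 CPM in WT vehicle and at 4.41, 5.64, 6.24, 6.57 and 7.18 CPM in WT CORT mice. AS vehicle hippocampi held 6.92, 8.54, 9.58 and 10.7 CPM and AS CORT hippocampi 6.73, 6.74, 7.19, 7.36 and 7.64 CPM. Groups overlapped in both genotypes. The log2 fold change in hippocampus was -0.19 (SE 0.14, adjusted p = 0.572, edgeR quasi-likelihood test) in WT mice, where 2.92% of all genes were called, and -0.33 (SE 0.13, adjusted p = 0.218) in AS mice, where 3.77% were. Of the 2 enzymes, 0 were called in either genotype by edgeR or DESeq2, with Srd5a1 in AS mice under an unadjusted p of 0.05. The effect in liver minus that in hippocampus, averaged over genotypes, was 0.68 (SE 0.12, adjusted p = 7.07e-05), and 25.8% of the 11017 genes tested in both tissues were called there, 14.7% as higher. Cyp7b1 was at 24.03 to 31.7 CPM in the vehicle groups and at 22.1 to 32.3 CPM in the CORT groups. Its log2 fold changes were -0.08 (SE 0.09, adjusted p = 0.750) in WT and -0.11 (SE 0.09, adjusted p = 0.651) in AS mice, and its difference between the tissues was -0.21 (SE 0.19, adjusted p = 0.447). Between AS and WT hippocampi, 0 of these 2 enzymes and 0.0134% of all genes were called with vehicle by edgeR, and 0 of 2 and 0.0401% with CORT. Srd5a1 with vehicle (log2 difference, AS minus WT, 0.39, SE 0.14) and Cyp7b1 with CORT (-0.22, SE 0.08) had an unadjusted p under 0.05, and the adjusted p were 0.505 and 0.395. H9 and H13 stood at 15.96 and 14.3 CPM of Srd5a1 and at 11.7 and 11.6 CPM of Cyp7b1. Their summed oligodendrocyte markers were 16727 and 13086 CPM, against a median of 3911 CPM over all 20 hippocampi. Their neuron markers were 2999 and 2022 CPM, against a median of 4693 CPM, and the part of such cells was not tested.

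In the acute cohort, Srd5a1 was called lower in AS hippocampus, but technical values moved with it. AS vehicle hippocampi ran from 7.32 to 10.3 CPM with a median of 8.32, and AS CORT hippocampi from 5.39 to 6.14 CPM with a median of 5.97, without overlap. On the log2 scale the change was -0.52 (SE 0.14, adjusted p = 0.0126, edgeR quasi-likelihood test), and 17.9% of all genes were called, 9.62% as lower. Summed oligodendrocyte markers were 2218 to 4384 CPM (median 3284) in AS vehicle and 1515 to 3009 CPM (median 2153) in AS CORT hippocampi, with overlap. In WT mice their medians were 3013 CPM with vehicle and 3067 CPM with CORT. The part of such cells in the Srd5a1 value was not tested. Reads set aside for low alignment quality numbered 2640 to 2850 in all 6 AS CORT libraries and in AS vehicle libraries H17 and H18, against 1877 to 2237 in the other 16. With that range as a covariate, an alternative added after the data were seen, the value was -0.32 (SE 0.19, adjusted p = 0.766). With H17 and H18 (7.32 and 7.42 CPM) as the only AS vehicle mice it was -0.32 (SE 0.20, adjusted p = 0.787). The SE was larger with fewer mice, so whether the call rested on the other 4 AS vehicle libraries cannot be told. In WT mice the vehicle hippocampi ran from 6.39 to 11.2 CPM (median 7.57) and the CORT hippocampi from 6.20 to 10.8 CPM (median 7.16), with a log2 fold change of -0.15 (SE 0.14, adjusted p = 0.760), and 1.48% of all genes were called. The difference between the genotypes was -0.38 (SE 0.20, adjusted p = 0.245), where 4.49% of all genes were called. Cyp7b1 was not called in either genotype (-0.10, adjusted p = 0.796 in WT and 0.16, adjusted p = 0.311 in AS mice). Between AS and WT hippocampi of this cohort, edgeR called 0 of these 2 enzymes and 0.157% of all genes with vehicle, and 0 of 2 and 24.9% of all genes with CORT. With CORT, Srd5a1 was lower in AS than in WT mice without overlap (log2 difference -0.34, SE 0.14, adjusted p = 0.0731), with an unadjusted p under 0.05, and the AS CORT libraries are those with more low-quality reads.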

How the data were processed

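The authors mapped stranded, paired-end reads to mm10 (STAR), assigned them to genes (HTSeq-count) and deposited the raw counts of 64 libraries. The annotation release and the strand setting of the counting are not given in the sources used here. Symbols and coordinates came from GENCODE M21 on GRCm38, the same assembly as mm10.

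A gene was tested where 3 or more mice of a group exceeded 20 counts after median-of-ratios scaling. Tests used edgeR 4.0.16 (R 4.3.3, TMM, quasi-likelihood F test, one coefficient per group, Benjamini-Hochberg adjustment over all genes tested, threshold 0.05). CPM values were scaled by TMM within each tissue, and in the joint fit over both tissues. Log2 CPM had a prior count of 2. RPKM divided CPM by summed exon length. The floor was 3 counts, and it and the 95% intervals on counts cover counting error only. The SE of a log2 fold change was its absolute value divided by the square root of the F statistic. Intervals of log2 fold changes and of their differences took a normal distribution with that SE. They are approximate and slightly too narrow, so that an interval can exclude 0 where the unadjusted p is above 0.05. No libraries were identical and 0 columns belonged to no sample. The mice are separate animals, numbered from the labels.

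Both tissues came from the same 20 mice, and libraries of the same number share genotype and treatment, but no source used here says that a number marks 1 mouse. A fit with the number as a block is among the alternatives, as are DESeq2 1.42.0, other normalizations, no filter, 1 surrogate variable (sva 3.50.0), fits of the compared groups alone and each library left out in turn. H9 and H13 were left out of the main hippocampal fits, as in the study.

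Enzymes and gene lists were chosen with earlier results of these data known. All 10 enzymes are counted in every liver comparison, and the 2 that could be tested in hippocampus there. Of each other list at most 3 genes are named, those with the smallest adjusted p among genes called in both genotypes. The values of 2 such list genes are not reported here. For Cyp17a1 the 5 genes with the highest and the 5 with the lowest correlation are named. Neighbouring genes, Ube3a, single marker genes, Hsd3b1, Hsd3b6 and overlapping gene models are exceptions named after their values were seen.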

Additional observations from a re-analysis of the deposited data

Results flagged for a closer look

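In 6 of 56 combinations of an enzyme and a group of 5 or 6 libraries, a single library lay far from the rest by Dixon's test at 95%. Chance gives about 1 in 20 for independent groups, and these combinations share libraries. Hsd3b2 was at 163 CPM in WT vehicle liver L4, against 133 to 139 CPM in the other 4. Srd5a1 was at 95.4 CPM in WT CORT liver L3, against 124 to 136 CPM. In continuous WT vehicle hippocampus, H13 had 14.3 CPM of Srd5a1, against 5.83 to 7.38 CPM, and 11.6 CPM of Cyp7b1, against 28.2 to 31.7 CPM. H13 is one of the libraries that the study left out, and it also held 783 CPM of choroid plexus markers, against a median of 45.5 CPM over the 20 hippocampi. Its oligodendrocyte markers summed to 13086 CPM and its neuron markers to 2022 CPM, against medians of 3911 and 4693 CPM. The part of such cells in its values was not tested. In the acute cohort, Srd5a1 was at 10.8 CPM in WT CORT hippocampus H11, against 6.20 to 7.51 CPM, and at 5.39 CPM in AS CORT hippocampus H19, against 5.87 to 6.14 CPM. The effect of CORT on Srd5a1 was 0.68 higher on the log2 scale in liver than in hippocampus by a test of the difference itself.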

How the results depend on the processing

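Over 47 results, 1205 recalculations under other settings left 1165 with the same direction and side of the threshold, or a count within 1.5 times, while 18 lost and 16 gained significance, 2 reversed and 4 counts moved. The number of enzymes called for CORT was 5 to 7 in WT and 5 to 6 in AS liver when each library was left out in turn, 0 in both genotype comparisons and in the interaction, and 1 in acute AS hippocampus. Averaged over treatments, a comparison added after the data were seen, 1 enzyme (Cyp7b1) differed between AS and WT livers. In acute AS hippocampus 0 enzymes were called under both settings for low-quality reads, with 150 and 130 genes called instead of 2612, and the cause was not tested. With all 20 hippocampi the effect on Cyp7b1 reversed to 0.108 in WT and 0.0644 in AS mice, and 203 and 221 genes were called instead of 436 and 564. Over 18 pairs of same-numbered livers and hippocampi and 11017 genes, deviations from group means had a median correlation of 0.01 (range -0.08 to 0.08, 0 pairs over 0.1), and 4 of 18 hippocampi correlated best with the liver of their own number in their group. With that number as replicate block, the pairing changed no call: 10 enzymes were higher in liver (15111 of 15937 genes differed in either direction), and the difference of the CORT effects between tissues for Srd5a1 was 0.68 (SE 0.10), 1 enzyme being called. Other counts of genes that moved by over 1.5 times were AS against WT with vehicle (2 by edgeR, 44 by DESeq2, 40 averaged over treatments, 0 with only these groups), AS against WT with CORT (34, 93 by DESeq2, 86 with a surrogate variable), the interaction (0, 9 by DESeq2, 2 without a filter, 2 with a surrogate variable, 995 at an unadjusted p under 0.05) and CORT in WT liver (2286, 4549 averaged over genotypes). The interaction with only the groups compared is the same fit and was not run. Without 2 livers per pair, 4 in place of 6 correlations passed. Counts behind Cyp17a1 in vehicle livers were low, with 74 counts in the lowest liver, and in hippocampus 6 enzymes were near 0.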
